A study of Mus musculus with 55 samples.

Results

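The expression of 10 chemokine ligand genes, Cxcl1, Cxcl2, Cxcl9, Cxcl12, Cxcl13, Ccl2, Ccl3, Ccl5, Ccl6 and Ccl9, was followed in the lungs of mice given arsenic (As) in food or drinking water, or injected with dexamethasone, sodium arsenite or both. The genes were taken by name. Their measurements are the 18 probe sets, of 45037 on the array, whose annotation carries only one of the 10 symbols, and all 18 were tested. All animals were male C57BL/6 mice (C57BL/6J in the study's methods), 6 weeks old on arrival and kept on their diet for 2 weeks before treatment. On AIN-76A, a purified diet, there were 5 control animals, 4 with 10 ppb As in the drinking water, 3 with 100 ppb As in the drinking water and 5 with 10 ppb As in the food, each for 5 weeks. On LRD-5001, a chow made from natural ingredients, there were 4 control animals and groups of 4, 3 and 5 with the same exposures. A further 19 animals on AIN-76A were examined 8 hr after an intraperitoneal injection: 5 with saline, 5 with 1 mg/kg dexamethasone, 4 with 1 mg/kg sodium arsenite and 5 with both. One array was run for each animal, whose letter names it below. Whole lung was used, so RNA from every cell type in the organ is pooled, and fewer cells of a type cannot be told apart from less RNA per cell.

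Chemokines are small secreted proteins that draw leukocytes along a gradient by way of G protein-coupled receptors. In the lung, Cxcl1 and Cxcl2 bind Cxcr2 and draw neutrophils. Ccl2 binds Ccr2 and draws monocytes, while Ccl3, Ccl6 and Ccl9 act through Ccr1. Ccl5 is a product of T and NK cells, Cxcl9 is induced by interferon-gamma and binds Cxcr3 on activated T cells, and Cxcl13 draws B cells to follicles by way of Cxcr5. Cxcl12 is made constitutively by stromal and endothelial cells, binds Cxcr4, and governs the retention and homing of many leukocytes.

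The sequences just upstream of 3 of these genes are shown because Cxcl1 and Cxcl2 moved together across the animals, whereas Cxcl12 ran against both. Windows from RefSeq (GRCm38.p6) were found for 8 of the 10 genes, Ccl2 and Ccl5 having no match. The last 100 bases before the annotated start are given 5′ to 3′, all on the plus strand, from chr5:90891145-90891244 for Cxcl1, chr5:90903799-90903898 for Cxcl2 and chr6:117168435-117168534 for Cxcl12. Capitals mark the 2 runs of at least 10 bases that the Cxcl1 and Cxcl2 windows share, GGGAATTTCCCTGG and GCATAAAAGG, which do not overlap. The former opens with the letters of an NF-kB site, and the latter holds a TATA-like box.
Cxcl1: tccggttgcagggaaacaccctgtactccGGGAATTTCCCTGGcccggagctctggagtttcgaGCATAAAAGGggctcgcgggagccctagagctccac
Cxcl2: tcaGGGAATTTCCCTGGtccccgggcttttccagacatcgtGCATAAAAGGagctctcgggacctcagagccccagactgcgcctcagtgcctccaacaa
Cxcl12: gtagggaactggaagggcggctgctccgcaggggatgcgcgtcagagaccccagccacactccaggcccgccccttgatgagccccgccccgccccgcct
The 14-base run lay at bases -71 to -58 of Cxcl1 and -97 to -84 of Cxcl2, counted back from the start, and the 10-base run at -36 to -27 and -59 to -50. Searched on both strands in the 250 bases before the start, the 14-base run was in 2 of 32851 mouse promoter windows (0.00609%), those of Cxcl1 and Cxcl2, and the 10-base run in 19 (0.0578%). The runs were picked from these windows, so their presence there is a description. The Cxcl12 window held neither run and had a GC content of 73% against 61% and 58% for Cxcl1 and Cxcl2.

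Values are log2 RMA expression values. The 52 arrays used had closely similar distributions (medians 4.25 to 4.37, SDs 2.29 to 2.42), and 3 further arrays of low signal spread (SDs 1.17 to 2.23) were set aside. Some lungs had high levels of markers of neighbouring tissue. Animal A of the AIN 10 ppb water group had mean fat markers of 10.28 and skeletal muscle markers of 10.14, where the AIN controls had 5.13 to 6.57 and 3.94 to 8.46. Animal E of the same group had thymus markers of 9.47 and T cell markers of 9.19 (AIN controls 4.01 to 4.19 and 5.73 to 5.94), and saline animal E had thymus markers of 7.77 and fat markers of 9.73. Skeletal muscle markers were highest in the LRD 10 ppb food group, where they reached 10.69, and reached 7.01 in the dexamethasone group. Lung markers were present throughout, with alveolar type II markers at 11.71 or more in every array. Known glucocorticoid targets, the check on dexamethasone, were not raised by it over saline: their mean level was 9.88 ± 0.29 (SD, n = 5) after dexamethasone and 9.98 ± 0.54 (n = 5) after saline, and 0 of 10 genes passed the test. The saline mean was itself above that of the uninjected AIN controls (9.41 ± 0.25, n = 5) and of arsenite alone (9.40 ± 0.26, n = 4). With both agents the targets averaged 10.13 ± 0.73 (n = 5).

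Most of the ligands varied more between animals of 1 group than the usual gene. The SD within groups was 1.04 for Cxcl13 and 0.95 for Cxcl2, larger than for 99.7% and 99.6% of all probe sets, whose median was 0.205. Cxcl1 (0.68), Ccl3 (0.68), Ccl5 (0.63) and Cxcl9 (0.61) were also above 98% of probe sets, whereas Cxcl12 (0.36), Ccl2 (0.32) and Ccl6 (0.29) exceeded 89.1%, 83.3% and 78.1%. These values are for the brightest probe set of each gene. The second brightest varied less for Cxcl1 (0.32, above 84.1%) and, at a dim level, for Cxcl9 (0.163, above 26.9%). The plot of all animals by group shows single high animals in several groups for the inducible ligands, and a step in Cxcl12 and Ccl5 in the dexamethasone groups.

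**Figure D1:**
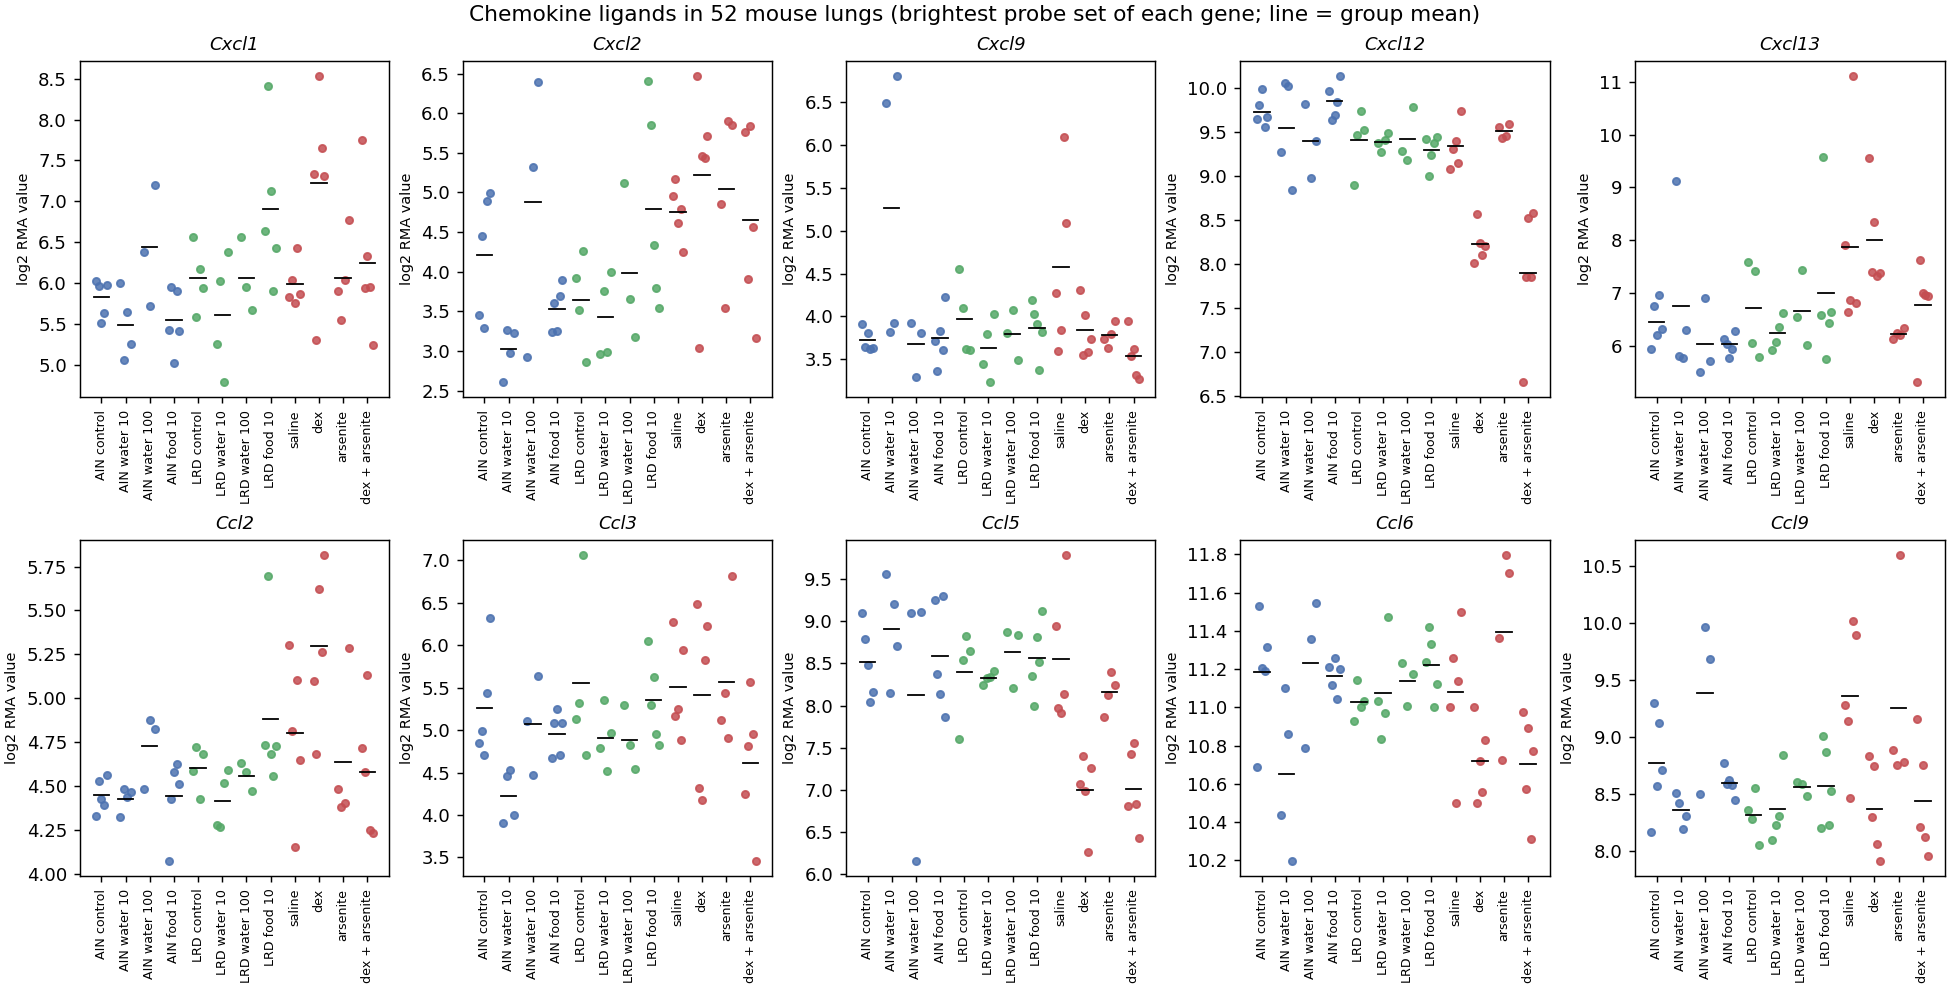
Log2 RMA value of each ligand (y axis, 1 panel a gene, each with its own scale, brightest probe set) in the 12 groups (x axis). Points are animals and lines are group means. Cxcl12 and Ccl5 are low in the dex and dex + arsenite groups, and single high animals stand out for Cxcl13, Cxcl9, Ccl2 and Ccl9.

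Cxcl12 and Ccl5 were lower after dexamethasone, whether it was given alone or with arsenite. Both comparisons use the same 5 saline animals. Cxcl12 was 9.09, 9.31, 9.40, 9.15 and 9.74 in the saline animals and 8.02, 8.57, 8.24, 8.11 and 8.21 after dexamethasone, so that every treated animal lay below every control. The difference was -1.11 ± 0.25 on the log2 scale (SE, 5 animals each; 2.16-fold lower; limma adjusted p = 0.0492, exact permutation p = 0.00794, the smallest that 5 against 5 allows). Ccl5 was 8.94, 7.97, 7.91, 8.14 and 9.79 after saline and 7.07, 7.40, 6.98, 6.27 and 7.26 after dexamethasone, again with no overlap. Its difference was -1.55 ± 0.31 (2.93-fold lower; limma adjusted p = 0.0290, exact permutation p = 0.00794). These were 2 of the 18 ligand probe sets, where 0.626% of all probe sets passed in either direction and 1.25% were lower without overlap (unadjusted 7 of 18, with 9.05%). In the 3 array batches with both groups (arrays whose raw files share the start of their name), Cxcl12 differed by -1.50 to -0.58 and Ccl5 by -2.80 to -0.74. The Cxcl12 call lay at the threshold: in 10 fits that each left out 1 animal its adjusted p was 0.0684 to 0.165, with a difference of -1.19 to -1.01. With the array batch as a block it was 0.0728. With the set-aside arsenite array back in the fit, the difference was the same, but neither ligand passed (adjusted p = 1.00 for Cxcl12 and 0.507 for Ccl5). Ccl5 kept its call in 6 of 10 such fits and lost it without saline animal B or F, or dexamethasone animal E or F (adjusted p up to 0.103).

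With dexamethasone and arsenite together, Cxcl12 was 6.66, 7.86, 8.53, 7.85 and 8.58, all below the saline animals. The difference was -1.44 ± 0.25 (2.72-fold lower; limma adjusted p = 0.00975), and it held in all 10 fits that left out 1 animal, at -1.61 to -1.13. Neither ligand passed with the set-aside arsenite array in the fit (adjusted p = 1.00 for Cxcl12 and 0.469 for Ccl5). Animal A, with the lowest Cxcl12 of all 52 animals, also had the highest level of glucocorticoid targets (11.11). Ccl5 was 6.80, 7.42, 7.55, 6.83 and 6.43, a difference of -1.54 ± 0.31 (2.92-fold lower; limma adjusted p = 0.0244) that was lost without saline animal B or combined animal E or F. Again 2 of 18 ligand probe sets passed, with 0.755% of all probe sets passing and 0.999% lower without overlap (unadjusted 6 of 18, with 9.89%).

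The same step was seen when dexamethasone was set against a background of arsenite. Cxcl12 was 9.56, 9.43, 9.46 and 9.60 in the animals given arsenite alone, a narrow range above all 5 animals given both, and the difference was -1.62 ± 0.27 (3.06-fold lower; limma adjusted p = 0.00977). It held in all 9 fits with 1 animal left out, but with the set-aside arsenite array counted in its group it was -0.85 (adjusted p = 0.450). Ccl5 was 7.86, 8.12, 8.40 and 8.25 with arsenite alone and did not overlap with the combined group, but its difference of -1.15 ± 0.33 did not pass across all genes (limma adjusted p = 0.130, exact permutation p = 0.0159). Here 1 of 18 ligand probe sets passed, with 0.622% of all probe sets passing and 2.4% lower without overlap (unadjusted 5 of 18, with 10.2%). Outside the dexamethasone groups, group means of Cxcl12 (brightest probe set) ranged from 9.30 to 9.86 and those of Ccl5 from 8.12 to 8.91. No ligand probe set passed the test of a different response to dexamethasone with and without arsenite (limma interaction, 0 of 18 at adjusted p under 0.05 and 0 unadjusted, with 0% and 3.79% of all probe sets).

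A second probe set for Cxcl12 moved in the same direction but by less. It was 8.10 to 9.24 after saline, 7.45 to 8.02 after dexamethasone and 6.22 to 7.92 after both, with no overlap against saline in either case (exact permutation p = 0.00794 for each). The differences of -0.76 ± 0.27 and -0.94 ± 0.27 did not pass across all genes (limma adjusted p = 0.310 and 0.143). Outside the dexamethasone groups its group means spread more widely, from 8.14 (AIN 100 ppb water) to 8.91 (AIN 10 ppb water). The latter was 0.66 above the AIN controls (exact permutation p = 0.111). The remaining probe set was dim, with an average of 3.96 over all animals and a range of 3.48 to 4.53.

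**Figure D2:**
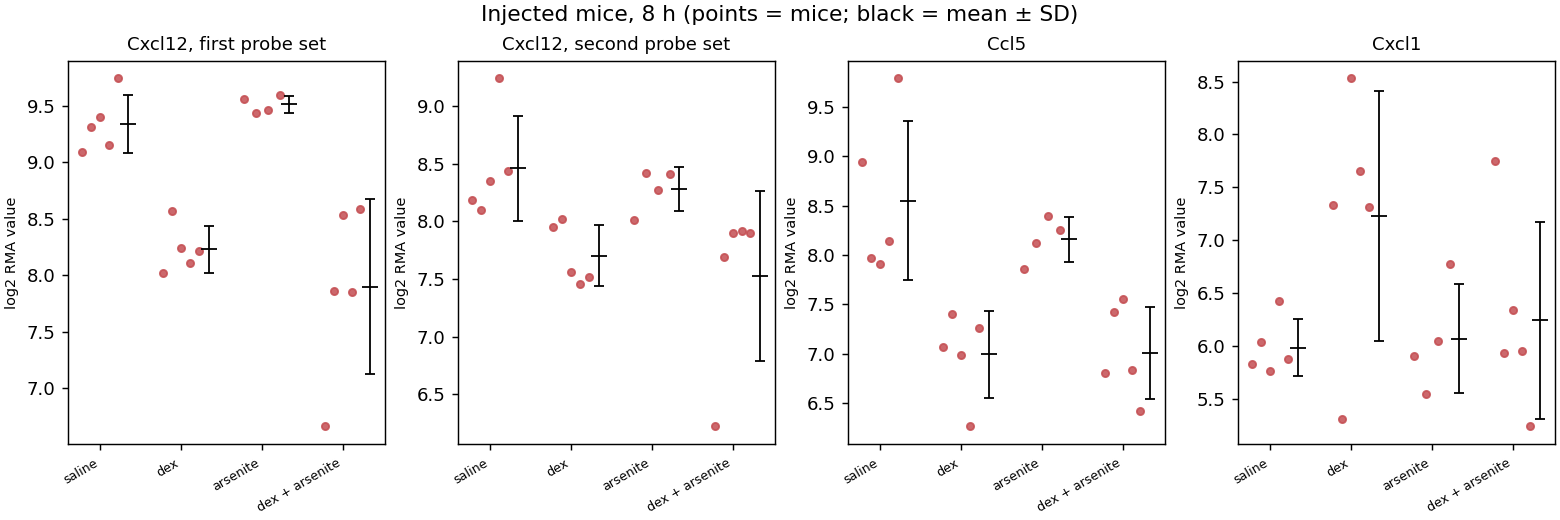
Log2 RMA values (y axis) of both brighter Cxcl12 probe sets, Ccl5 and Cxcl1 in the 4 injected groups (x axis), with points for animals and black bars for mean ± SD. Cxcl12 and Ccl5 fall without overlap between saline and both dexamethasone groups, whereas Cxcl1 is high in 4 of 5 dexamethasone animals and in 1 given both.

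Markers of lymphocytes and monocytes were measured in the same groups. The mean of the 7 measured NK cell markers was 5.21 to 6.28 after saline and 5.32 to 6.08 after arsenite, against 4.31 to 4.93 after dexamethasone and 4.21 to 5.36 after both. Of these 7, Nkg7, a granule protein of NK and T cells, passed in the comparison of dexamethasone with saline (-1.70 ± 0.32, limma adjusted p = 0.0214) and in that of the combination with saline (-1.64 ± 0.32, limma adjusted p = 0.0200), and all 7 differences were negative in both. Prf1, the pore-forming perforin, passed when dexamethasone was added to arsenite (-0.997 ± 0.222, limma adjusted p = 0.0457). Ncr1, the receptor that defines NK cells, was dim in every injected animal (3.38 to 4.84). B cell and follicle markers averaged 6.10 after saline (4.97 to 7.43), 5.14 after dexamethasone (4.55 to 6.01) and 4.94 after both (4.71 to 5.29), with overlap, and 0 of 8 passed. Monocyte markers were 7.36 to 8.55, 6.47 to 6.95 and 6.41 to 7.43, and 0 of 7 passed. T cell markers were 5.42 to 7.69, 5.14 to 5.52 and 5.01 to 5.43, and 0 of 7 passed, the highest saline value being that of animal E with thymus markers. Endothelial markers, of cells known to make Cxcl12, averaged 10.22, 10.24 and 10.29, and lung fibroblast and smooth muscle markers 10.28, 10.30 and 10.07. The part of these cells in the ligand differences was not tested.

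Among the neutrophil ligands, Cxcl1 was 7.33, 8.53, 7.65 and 7.31 in 4 of the dexamethasone animals but 5.30 in animal B, with 5.76 to 6.42 after saline. The mean difference of 1.24 ± 0.47 (2.37-fold) did not pass across all genes (limma adjusted p = 0.352, exact permutation p = 0.0476), and it was 0.92 without dexamethasone animal C and 1.72 without animal B. The other 2 probe sets gave 1.84 ± 0.62 and only 0.42 ± 0.21 (exact permutation p = 0.0635 for the latter, which is nearly as bright as the first). Animal B was also the lowest of its group for Cxcl2 (3.04, the others 5.44 to 6.46) and had the lowest NF-kB targets and feedback genes of its group (7.25, the highest being 8.00). With arsenite added to dexamethasone, Cxcl1 was 5.24 to 7.75, a mean difference of -0.99 ± 0.47 (limma adjusted p = 1.00). Ccl2, the monocyte ligand, was 4.68 to 5.82 after dexamethasone and 4.23 to 5.13 after both, a difference of -0.71 ± 0.24 with exact permutation p = 0.0397 and limma adjusted p = 1.00. No ligand probe set passed for arsenite added to dexamethasone (limma 0 of 18, with 0% of all probe sets; unadjusted 3 of 18, with 2.28%).

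Injected arsenite alone was followed by low and even values of Cxcl13. They were 6.12, 6.25, 6.20 and 6.34, all below the saline animals at 7.91, 6.64, 6.87, 11.10 and 6.82. The difference of -1.64 ± 0.71 did not pass across all genes (limma adjusted p = 0.697, exact permutation p = 0.0397), and without saline animal E it was -0.83. Across all probe sets 0.699% were lower without overlap. A second probe set gave -1.66 ± 0.70. Animals given both agents (5.31 to 7.62) lay below the mean of those given dexamethasone (7.32 to 9.56), by -1.23 ± 0.67 (limma adjusted p = 1.00, exact permutation p = 0.0317). Cxcl13 was higher in the saline animals than in the uninjected AIN controls too (5.95 to 6.97; 1.42 ± 0.63, limma adjusted p = 0.999, and 0.61 without animal E). Fat markers averaged 7.19 after saline, 5.44 after arsenite, 7.42 after dexamethasone, 5.70 after both and 5.71 in the uninjected animals. These means were higher after saline and dexamethasone than in the other groups, but the ranges overlapped. In the same order they were 5.37 to 9.73, 4.73 to 6.51, 5.67 to 8.82, 5.30 to 5.95 and 5.13 to 6.57. Plasma cell markers averaged 8.49, 8.00, 8.35, 8.02 and 8.03 in that order. Within groups Cxcl13 had r = 0.591 with the former and 0.749 with the latter, and their part in the differences was not tested. No ligand probe set passed for arsenite against saline (limma 0 of 18, with 0% of all probe sets; unadjusted 3 of 18, with 6.72%), or for saline against uninjected animals (0 of 18, with 0.00222%; unadjusted 4 of 18, with 4.09%).

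Ccl9, a myeloid ligand of Ccr1, was 9.28, 9.14, 8.46, 10.02 and 9.90 after saline and 8.83, 8.29, 8.74, 8.06 and 7.91 after dexamethasone. The difference was -0.99 ± 0.35 with 1 overlapping saline animal (limma adjusted p = 0.299, exact permutation p = 0.0238), and with both agents it was -0.92 ± 0.35 (limma adjusted p = 0.332). The second Ccl9 probe set gave smaller differences, -0.63 ± 0.44 and -0.66 ± 0.44 (exact permutation p = 0.19 and 0.246). With the first probe set, the uninjected AIN controls had a mean of 8.77 (8.16 to 9.29), between those of saline (9.36) and dexamethasone (8.37). Cxcl9 was 3.60 to 6.10 after saline (mean 4.58), animals E and F being high, and 3.54 to 4.30 after dexamethasone (mean 3.84). In the uninjected AIN controls it was 3.62 to 3.91 (mean 3.72), near the dexamethasone level. Its difference from saline of -0.74 ± 0.33 after dexamethasone (limma adjusted p = 0.494) was -0.36 without saline animal E. With both agents it was -1.04 ± 0.33 (limma adjusted p = 0.187), or -0.66 without the same animal. Its second probe set, at 2.86 to 3.31 in these 3 groups, gave -0.08 ± 0.09 and -0.19 ± 0.09. Ccl6, another Ccr1 ligand, was 11.36, 10.72, 11.80 and 11.70 after arsenite and 10.31 to 10.98 after both, lower in all 5 combined animals than the arsenite mean (-0.69 ± 0.21, limma adjusted p = 0.161). Without arsenite animal B this Ccl6 difference was -0.91 and passed (limma adjusted p = 0.0367), whereas with the set-aside arsenite array it turned to 0.27 (limma adjusted p = 0.793). The second Ccl6 probe set averaged 9.43 after arsenite (8.88 to 9.79) and 9.02 after both (8.63 to 9.58), with overlap.

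**Figure D3:**
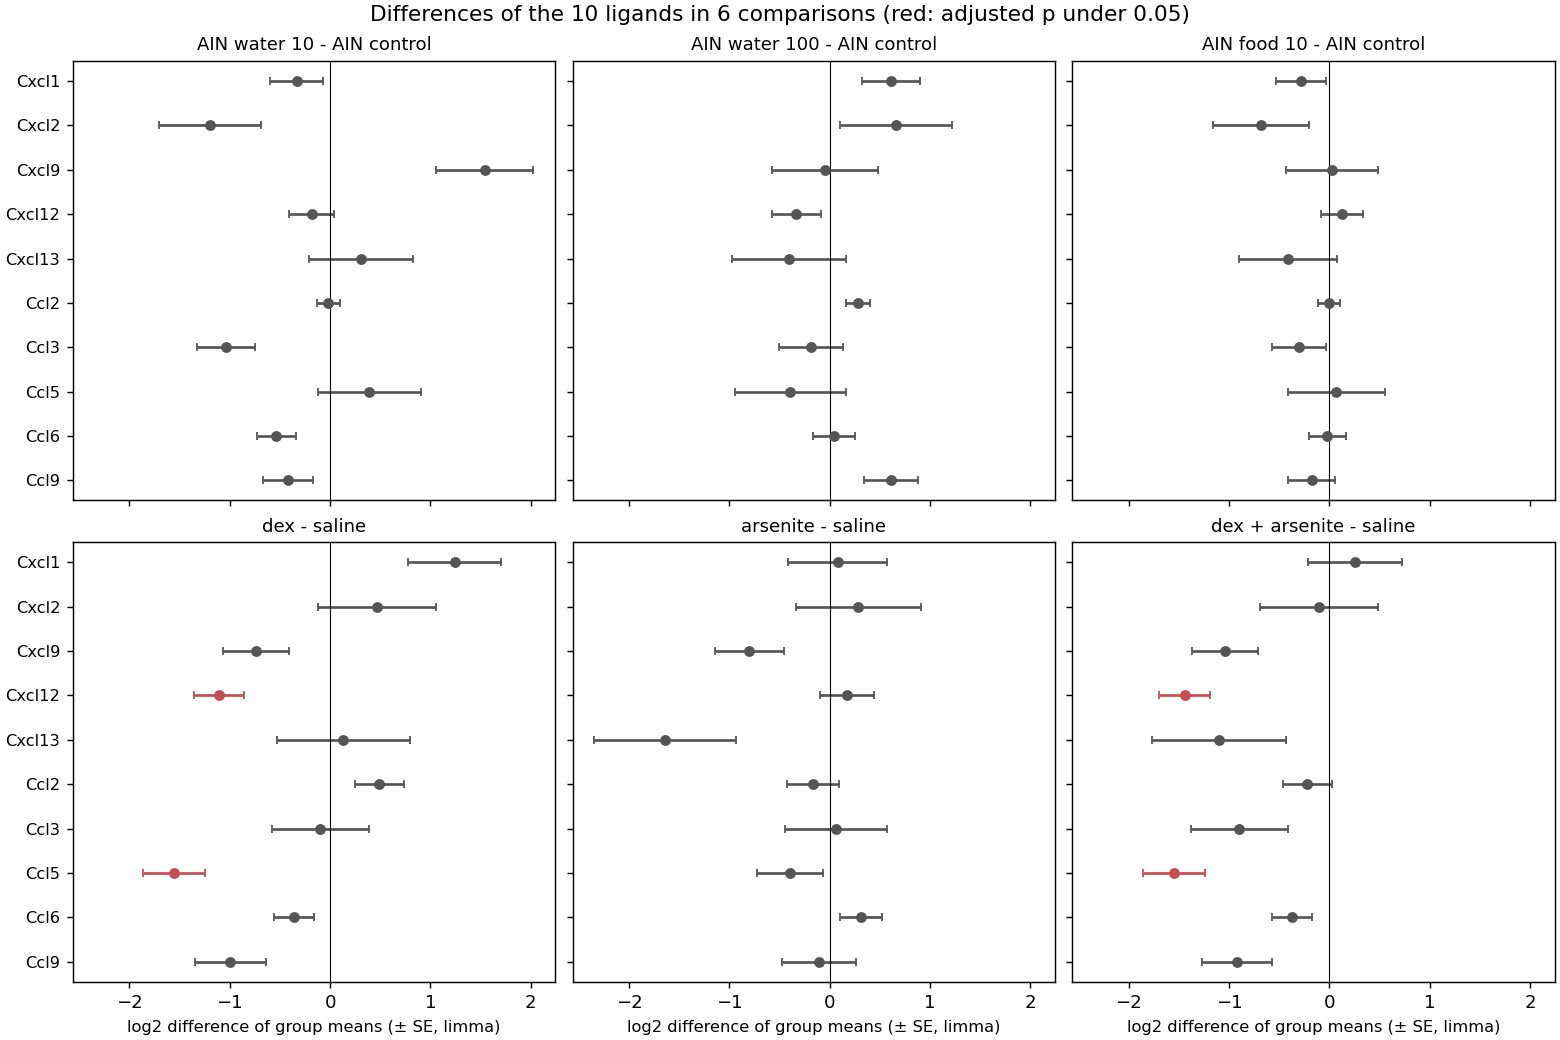
Log2 differences between group means (x axis, bars ± SE from limma) for the 10 ligands (y axis) in 6 comparisons, 1 panel each, those of a row sharing a control group. Only Cxcl12 and Ccl5, in the dex and dex + arsenite panels, are drawn in red for an adjusted p under 0.05.

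Chronic As exposure on the AIN diet gave no ligand call with limma. At 10 ppb in the drinking water, 0 of 18 ligand probe sets passed (0% of all), and 7 of 18 had an unadjusted p under 0.05, with 9.79% of all probe sets. Their median absolute difference was 0.41, with 0.12 over all probe sets. Cxcl2, Ccl3 and Ccl6 had lower means than in the controls. Cxcl2 was 3.45, 4.45, 3.29, 4.89 and 5.00 in the controls and 2.61, 3.27, 2.98 and 3.23 at 10 ppb, without overlap (-1.20 ± 0.51, limma adjusted p = 0.496, exact permutation p = 0.0397). Ccl3 was 4.84, 5.00, 4.71, 5.44 and 6.32 in the controls and 3.91, 4.46, 4.53 and 4.00 at 10 ppb, also without overlap (-1.04 ± 0.29, limma adjusted p = 0.492, exact permutation p = 0.0159). Across all probe sets 1.11% were lower without overlap. The Cxcl2 values at 10 ppb lay below the median level of every array (4.25 or more), and the gene did not pass a filter on dim probe sets among the AIN animals, so the size of its difference is uncertain. Ccl6 was 10.69 to 11.53 in the controls and 10.20 to 11.10 at 10 ppb (-0.54 ± 0.19), and its second probe set gave -0.67 ± 0.21 (limma adjusted p = 0.492 for both). Neutrophil markers were 6.52 to 9.28 in the controls and 6.48 to 7.08 at 10 ppb (11 of 12 differences below 0), monocyte markers 7.17 to 8.23 and 7.21 to 7.40 (7 of 7), and alveolar macrophage markers 8.63 to 9.01 and 8.10 to 8.79 (8 of 9, 7 with an unadjusted p under 0.05). Their part in the ligand differences was not tested.

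The rank product, which orders genes by their ranks over all pairs of exposed and control animals, listed Cxcl2 and Ccl3 as lower at 10 ppb (estimated share of false positives 0.00208 and 0.00622), with 0.406% of all probe sets. It listed Cxcl2 as higher at 100 ppb in the water (0.014, with 0.104% of all probe sets) and as lower with 10 ppb in food (0.0233, with 0.0999%). The values behind these 2 listings overlapped the controls. At 100 ppb Cxcl2 was 2.93, 5.32 and 6.39, the lowest and the highest animals lying on opposite sides of the controls (0.66 ± 0.56, limma adjusted p = 1.00). With food it was 3.24, 3.61, 3.25, 3.69 and 3.89, at the low end of the control range (3.29 to 5.00) (-0.68 ± 0.48, limma adjusted p = 1.00). The 3 comparisons share the 5 AIN controls. Within the 4 array batches that held both groups, Cxcl2 at 10 ppb differed by -1.73 to -0.85 and Ccl3 by -1.86 to -0.47.

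Cxcl9 was above its control range mainly in 2 of 4 animals at 10 ppb on the AIN diet. It was 3.62 to 3.91 in the controls, 6.50 in animal A, 6.80 in animal E, and 3.82 and 3.92 in animals C and D, so that all but A and E were below the median level of their array. The mean difference of 1.54 ± 0.48 did not pass (limma adjusted p = 0.492, exact permutation p = 0.0159), and of the 9 fits that left out 1 animal it passed only without animal C (2.02, limma adjusted p = 0.0490). The second Cxcl9 probe set, dimmer still, gave 0.40 ± 0.14 (exact permutation p = 0.0714). Animals A and E are those with fat and muscle or thymus markers, and without both the difference was 0.15 (limma adjusted p = 0.914). The Ccl6 difference was -0.20 without them, whereas those of Cxcl2 (-1.09) and Ccl3 (-0.77) changed less. The Cxcl12 probe sets parted in these animals: animal E had 8.84 with the first, below its controls, and 9.99 with the second, above them.

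At 100 ppb in the water on the AIN diet, no ligand probe set passed (limma 0 of 18, 0% of all; unadjusted 3 of 18, with 1.83%). Ccl9 was 8.50, 9.97 and 9.69, with 8.16 to 9.29 in the controls (0.61 ± 0.27, limma adjusted p = 1.00; 1.05 without animal A and 0.32 without animal C). Ccl2 was 4.49, 4.88 and 4.83, with 4.33 to 4.56 (0.28 ± 0.12, limma adjusted p = 1.00), and did not pass the filter on dim probe sets among the AIN animals. Animal C stood apart with the lowest Ccl5 of all 52 animals, 6.16 against 9.10 and 9.12 in the other two. It also had NK cell markers of 4.29 and neutrophil markers of 10.46, the latter the highest of all animals. With 10 ppb As in food, again no ligand probe set passed (limma 0 of 18, 0% of all; unadjusted 1 of 18, with 1.89%), and the median absolute ligand difference was 0.12, with 0.07 over all probe sets.

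On the LRD-5001 diet no ligand probe set passed in any of the 3 exposures (limma, 0% of all probe sets). Unadjusted counts were 0 of 18 for 10 ppb in water (3.68% of all), 0 for 100 ppb in water (3.54%) and 1 for food (2.62%). Cxcl2 with As in food was 6.41, 5.85, 4.34, 3.80 and 3.55, the first 3 above every LRD control (3.92, 3.52, 4.27 and 2.87), for a difference of 1.15 ± 0.54 (limma adjusted p = 1.00) that was 0.74 without animal B. Every control value lay below the median level of its array, and Cxcl2 did not pass the filter on dim probe sets among the LRD animals. The size of its difference is thus uncertain. Cxcl1 in the animals with As in food was 6.64, 8.41, 7.13, 5.90 and 6.43, with controls of 5.58 to 6.56. Animal C of this group, with Cxcl1 at 8.41, was also high for Cxcl13 (9.57) and Ccl2 (5.70) and had the highest NF-kB targets and feedback level of all animals (8.32). The Cxcl2 difference with As in food was of opposite sign on the AIN diet, but it passed on neither diet. Nor did the interaction pass (1.83 ± 0.84, limma adjusted p = 1.00).

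No ligand probe set passed between the LRD and AIN animals (limma, 0 of 18; 0.153% of all probe sets passed, and 2 of 18 ligand probe sets had an unadjusted p under 0.05, with 4.25%). Those 2 were Cxcl12, with a difference of -0.26 ± 0.12 (means 9.38 on LRD and 9.64 on AIN), and Ccl9, with -0.33 ± 0.16 (8.45 and 8.78). The interaction of diet with 10 ppb As in water called 0 of 18 (0% of all; unadjusted 4 of 18, with 11.8%). For Cxcl9 it was -1.89 ± 0.57 (limma adjusted p = 0.363), and -0.50 without AIN animals A and E. The interactions of diet with 100 ppb in water and with food also called 0 of 18 (0% of all; unadjusted 1 of 18 each, with 2.47% and 2.04%).

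Across the 52 animals the ligands fell into sets that moved together, described here with Pearson's r over arrays that share groups and batches. Cxcl1 went with Ccl2 (r = 0.709) and Cxcl2 (0.681), and Cxcl2 with Ccl2 (0.613) and Ccl3 (0.542). With group means removed the first 2 values were 0.545 and 0.606. The myeloid ligands Ccl6 and Ccl9 had r = 0.613 (0.638 within groups). Cxcl12 and Ccl5 had r = 0.702, but 0.302 within groups, so that most of it lay between groups. Cxcl12 ran against Cxcl1 (-0.501), within groups as well (-0.424).

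**Figure D4:**
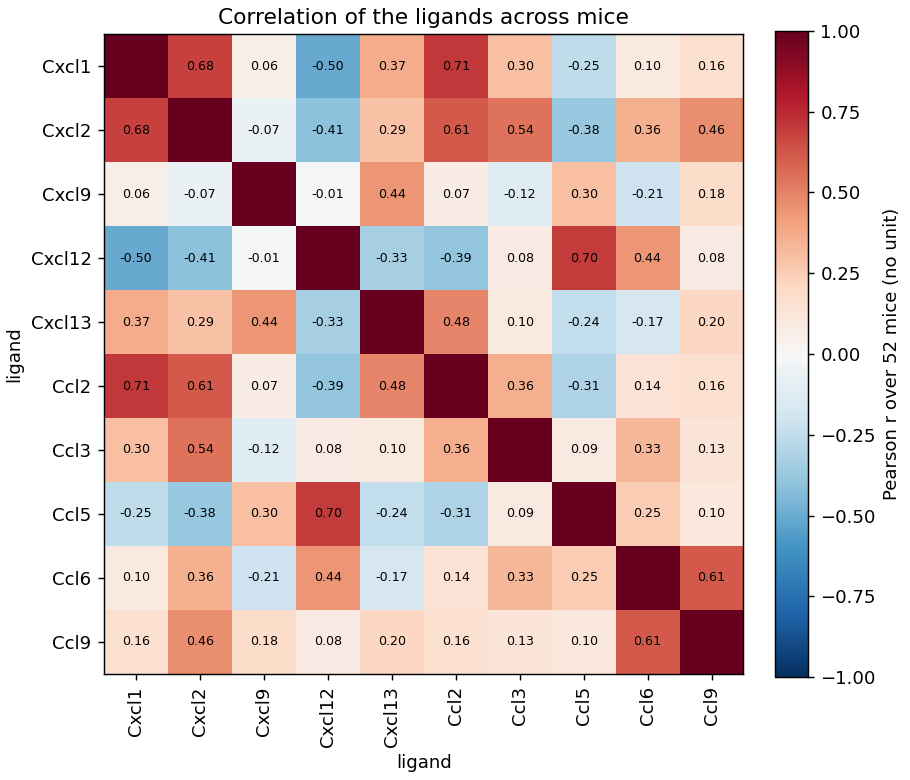
Pearson r between the brightest probe sets of the 10 ligands (both axes) over 52 animals, from -1 (blue) to 1 (red). Cxcl1, Cxcl2 and Ccl2 form a set with r of 0.613 to 0.709, and the lowest value is that of Cxcl1 with Cxcl12, -0.501.

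Of 11208 genes with a mean above 5, those most like Cxcl1 across the animals were Nfkbiz (r = 0.714), a nuclear NF-kB co-regulator, the stress-response factor Atf3 (0.691) and Apold1 (0.674). Cxcl2 was most like Nfkbiz (0.808), the cytokine feedback gene Socs3 (0.765) and Cxcl1. Ccl2 was most like Cxcl1, the hyaluronan synthase gene Has1 (0.664) and Atf3 (0.631), and Ccl3 most like Atf3 (0.616), Rgs1 (0.565) and Vsig2 (0.563). With the mean of the NF-kB targets and feedback list, of which Nfkbiz is a member, Cxcl1, Cxcl2 and Ccl3 had r = 0.612, 0.719 and 0.561. Ccl6 and Ccl2 had r = 0.527 and 0.507 with the same list.

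For the other ligands, the most alike genes are given in the same way, with r for marker lists where stated. Ccl5 was most like Nkg7 (0.945), the transcription factor gene Irf8 (0.894) and the MHC class II gene H2-Ab1 (0.879), and had r = 0.831 with NK cell markers (0.680 within groups). With B cell and follicle markers Ccl5 had r = 0.770 (0.553 within groups). Ccl9 was most like the leukocyte receptor gene Pirb (0.881), F13a1 (0.843), a monocyte and macrophage product, and Emilin2 (0.843), and Ccl6 like Pilra (0.829), the leukotriene enzyme gene Alox5 (0.813) and Sirpb1a (0.810). Cxcl13 was most like Fcna (0.885), the fat droplet gene Cidec (0.803) and the immunoglobulin joining chain gene Jchain (0.791), with r = 0.703 for plasma cell markers and 0.632 for fat markers. Cxcl9 was most like Dnajc15 (0.825), the T cell coreceptor gene Cd4 (0.816) and Ldha (0.811). It had r = 0.732 with T cell, 0.770 with thymus, 0.658 with fat and -0.792 with endothelial markers, and 3 of 52 animals were above 6 for Cxcl9. Cxcl12 was most like Scn3a (0.880), Gyg (0.878) and Slc7a10 (0.854), genes of none of these lists. Over all animals it had r = 0.777 with NK cell markers, 0.741 with interferon-gamma targets and -0.684 with glucocorticoid targets, and within groups 0.370, 0.442 and -0.603, with 0.676 for endothelial markers.

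**Figure D5:**
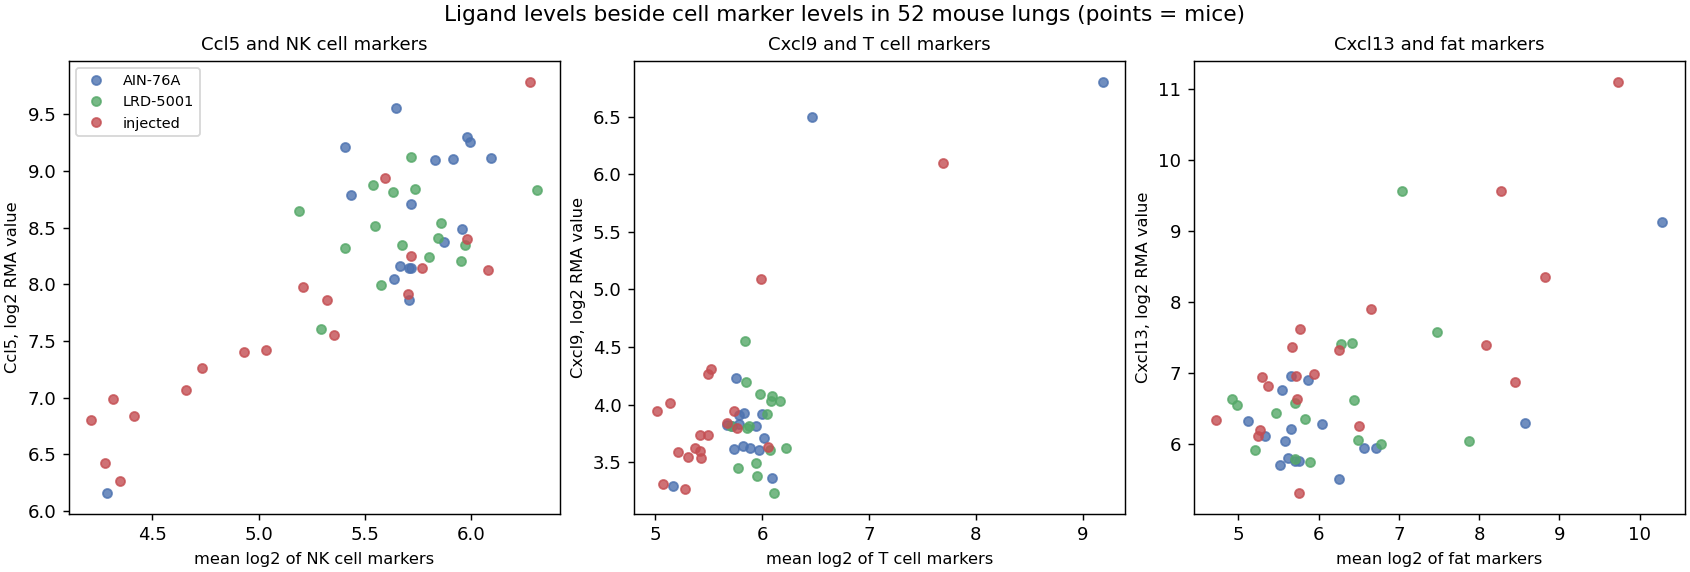
Log2 RMA values of Ccl5, Cxcl9 and Cxcl13 (y axes) against the mean log2 level of NK cell, T cell and fat markers (x axes) in 52 animals, coloured by diet or injection. Ccl5 rises with NK cell markers over all animals (r = 0.831, and 0.680 within groups). For Cxcl9, 3 animals are above 6, and the 3 animals with the most fat signal include the highest Cxcl13.

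The rest of the chemokine system gave no calls. Of 10 further CXC ligands, 14 further CC, C and CX3C ligands, 16 chemokine receptors and 5 atypical receptors measured, 0 passed in any of the 17 comparisons (limma). For dexamethasone against saline, 12 of 16 chemokine receptor differences were below 0 (5 with an unadjusted p under 0.05, with 9.05% of all probe sets), a median of -0.49 and 0.0044 over all probe sets, and 14 of 16 below 0 when dexamethasone was added to arsenite (6 unadjusted, with 10.2%). Of the further CC, C and CX3C ligands, 13 of 14 had a mean below saline after dexamethasone (3 with an unadjusted p under 0.05, 2 of them lower, with the same 9.05%). The mean level of these ligands was 5.13 after saline, 4.89 after dexamethasone and 4.90 in the uninjected AIN controls, so that only the saline level stood higher. Among NF-kB targets and feedback genes, Relb, a subunit of the factor itself, fell when dexamethasone was added to arsenite (-0.57 ± 0.13, limma adjusted p = 0.0469), and no other gene of these 10 passed in any comparison.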

How the data were processed

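Lung RNA from 55 mice was hybridised to Affymetrix whole-genome mouse arrays, 1 array an animal. The deposited log2 values were made by the authors with robust multi-array averaging (RMA) and were used as they stand. Which arrays were normalized together is not given in the sources used here, and RMA equalises distributions, so a change shared by most genes would be removed. Control probe sets (64 of 45101) were left out. Of the rest, 34945 had 1 gene symbol in the platform annotation, 932 several and 9160 none. The 3 arrays of low signal spread were set aside: 1 each of AIN 100 ppb water, LRD 10 ppb water and injected arsenite. The labels do not mark these arrays, and they were chosen by their signal spread as known from earlier results of these data. The members and gene lists were chosen with earlier results of these data known.

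Each experiment (AIN exposures, LRD exposures, injections) was fitted with limma 3.58.1 (lmFit and eBayes, R 4.3.3) over 45037 probe sets, and diet comparisons in a fit of all 12 groups. P-values were adjusted by Benjamini-Hochberg over all probe sets, with a threshold of 0.05. Single values were compared by two-sided exact permutation tests over animals (120 over the main probe sets, not adjusted), and the AIN comparisons also by a rank product with 100 random orderings. Each gene is given by its brightest probe set, with others where stated, and named alike genes are the 3 with the highest r. Marker lists are given as the mean of the log2 values of their measured genes. The number of arrays limits the precision. Python 3.11.15, numpy 2.4.6, pandas 2.3.3, scipy 1.17.1 and matplotlib 3.10.9 were used, and the fits were tested on simulated data. Replicate letters shared by groups did not pair animals: same-letter arrays had a median correlation of residuals of -0.00914 (36 pairs), against 0.16 for arrays of 1 batch (40 pairs). Alternatives were the set-aside arrays, a filter on dim probe sets (over 5 in 4 arrays), batch and replicate blocks, array weights, quantile normalization, median centring, 1 fit of all groups, and leaving out each animal. Leaving out AIN 10 ppb water animals A and E was chosen after seeing the data.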

Additional observations from a re-analysis of the deposited data

Results flagged for a closer look

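Of 100 gene and group pairs with 4 or 5 animals, 7 held an animal standing apart from the rest of its group, where chance gives a share of about 0.05. For Cxcl13 these were AIN 10 ppb water animal A at 9.13 (next 6.30), LRD food animal C at 9.57 (next 6.63), saline animal E at 11.10 (next 7.91) and, as the lowest of its group, dexamethasone and arsenite animal A at 5.31 (next 6.95). The fat markers of the AIN 10 ppb water animal and of the saline animal were 10.28 and 9.73, the highest of all 52 animals, and the plasma cell markers of the saline animal were 9.82, also the highest. For Ccl2 they were LRD food animal C at 5.70 (next 4.73), whose NF-kB targets and feedback genes were at 8.32, and arsenite animal F at 5.29 (next 4.48), with these genes at 8.19. For Ccl9 it was arsenite animal C at 10.60 (next 8.88), which had the highest monocyte markers of all animals, 8.95. The part of these cells or tissues in the values was not tested.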

How the results depend on the processing

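With the 3 low-quality arrays included, the counts of ligand probe sets called fell to 0 for dexamethasone, 0 for dexamethasone and arsenite, and 0 for dexamethasone added to arsenite, where Ccl6 and Ccl9 turned to 0.27 and 0.0738. The array batch as a block left 1 call for dexamethasone (Ccl5), and so did median centring with 1. With the replicate block the counts were 0 for dexamethasone and 1 for both agents (Cxcl12), and the animals are not paired. A single fit of all 12 groups gave 2 calls for dexamethasone added to arsenite, Ccl6 joining Cxcl12. The rank product gave 2, 1 and 1 on the AIN diet (10 ppb water, 100 ppb water, food) where limma gave 0. The cause of these changes was not tested. Leaving out 1 animal at a time gave 0 to 2 calls for dexamethasone, 1 to 2 for both agents, 1 to 2 for dexamethasone added to arsenite, 0 to 2 for AIN 10 ppb water and 0 to 2 for its interaction with diet, the last 2 reaching 2 without water animal C, where both Cxcl9 probe sets passed. The other 125 counts under alternatives that kept every animal or left out AIN 10 ppb water animals A and E stayed within 1.5 times. So did the other 197 with 1 animal left out. Of the single ligand differences, with every animal kept or without animals A and E, 2 reversed (above), 10 lost their call and 1 gained one. With 1 animal left out 17 lost their call, 3 gained one and 354 stayed on their side of the threshold.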
